A study of Mus musculus with 2 samples.

Results

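The regions described here are 1188 promoter regions of the mouse cell line G1E that were accessible in both replicates and carried an ETS site, the DNA sequence bound by ETS transcription factors, near their accessibility maximum. They were chosen from 25799 accessible regions, of which 17425 were listed in both replicates and 8538 of those lay within 1000 bp of a protein-coding transcript start in GENCODE M21. A member held CCGGAAAC, CCGGAAAT, CCGGAAGC or CCGGAAGT on either strand, entirely within 100 bp of the summit, which is the highest point of the strongest replicate 1 peak. It also held no string of the CCAAT-binding factor NF-Y (CCAAT followed by C or G and then by A or G) in the same window of 201 bases. The members made up 13.9% of the promoter regions shared by both replicates, and 1432 protein-coding genes had a start within 1000 bp of one. Of the members, 936 served 1 gene, 241 served 2 and 11 served at least 3.

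Open chromatin had been profiled with ATAC-seq, a method whose transposase adds adapters for sequencing where DNA is exposed, in 2 biological replicates of 50000 G1E cells each. G1E is an erythroid progenitor line of strain C57BL/6J without the transcription factor GATA1, and both replicates carried that deficiency and received no labelled treatment. They form 1 group, so conditions could not be compared, and the labels do not say whether the replicates came from separate cultures. The thresholded peak lists joined into 20842 regions in replicate 1 and 22382 in replicate 2, and no read totals were given, so the depth is unknown. Promoter regions were listed in both replicates at all 9 erythroid markers examined (Klf1, Tal1, Lmo2, Ldb1, Zfpm1, Gfi1b, Nfe2, Epor and Kit) and at 0 of 8 genes of other lineages. None of the 9 had an ETS-site region, where the share over all genes with a shared promoter region was 16.8%, and a count this small can be read no further.

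ETS factors share a winged-helix DNA-binding domain that reads a GGAA core, and the bases around the core set how well each factor binds. GABP, which binds DNA through GABPA, and the related ELK and ELF factors recognise the CCGGAAGT form and are known for activating housekeeping promoters that often lack a TATA box. Other members of the family, such as PU.1 and FLI1, are known as blood cell regulators and often bind away from promoters.

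The stretches below show the site at members that later results turn on, read 5′ to 3′ from GRCm38 (mm10), with the ETS string in capitals on the strand where it reads CCGGAA. Cox5b, Tfb1m, Tfam and Surf2 are targets of GABP known from earlier work, Gabpa encodes the DNA-binding subunit of GABP, and Mrps26, Rpl31 and Zfp433 stand for 3 of the gene groups described below.
Cox5b (chr1:36691546-36691575, plus strand): tcagcctgttcCCGGAAGTgcatctgcttg
Tfb1m (chr17:3557820-3557849, plus strand): ggagaaacctgCCGGAAATgacgaaactga
Tfam (chr10:71238073-71238102, minus strand): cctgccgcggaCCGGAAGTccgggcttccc
Surf2 (chr2:26916329-26916358, minus strand): atttctcggtcCCGGAAGTgctcaaagatg
Gabpa (chr16:84835019-84835048, minus strand): agctgagggacCCGGAAGCacttaccctcc
Mrps26 (chr2:130563731-130563760, minus strand): ctgcgcccggcCCGGAAGTggccgcggagc
Rpl31 (chr1:39367848-39367877, plus strand): ctccccgtgacCCGGAAGTtgtacggctac
Zfp433 (chr10:81704762-81704791, minus strand): agcatggcggaCCGGAAGTacccgcctcca
Longer stretches upstream of transcripts are shown for Mfn1, a strongly accessible member with 1 site, and Nr1h2, the member with the most sites. In these, strings that read CCGGAA on the opposite strand appear as TTCCGG, and the Nr1h2 stretch ends in overlapping sites on both strands.
Mfn1 (chr3:32529353-32529464, plus strand): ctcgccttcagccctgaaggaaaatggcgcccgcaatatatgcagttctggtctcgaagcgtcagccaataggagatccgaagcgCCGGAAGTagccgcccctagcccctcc
Nr1h2 (chr7:44553952-44554104, minus strand): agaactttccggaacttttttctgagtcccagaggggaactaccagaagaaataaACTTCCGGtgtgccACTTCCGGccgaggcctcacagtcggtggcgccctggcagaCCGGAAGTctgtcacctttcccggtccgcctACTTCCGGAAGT

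The 1188 regions held 1460 matches, and the letters were unevenly used. CCGGAAGT accounted for 716 matches (49.04%), CCGGAAGC for 474 (32.5%), CCGGAAAC for 169 (11.6%) and CCGGAAAT for 101 (6.92%). Matches to CCGGAAGT lay within 100 bp of a start in 87.3% of cases, against 82.1% for CCGGAAGC, 77.5% for CCGGAAAC and 78.2% for CCGGAAAT. The base after the site, which the rule did not fix, was G in 629 matches (43.1%) and T in 228 (15.6%). After the site, the commonest next 4 bases were ggaa, present at 57 matches (3.90%), which places a further GGAA core beside the first. Next were cccg at 42 matches (2.88%) and gacg at 41 (2.81%), the latter as at Elk4 and Tfb1m.

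The ETS matches lay on top of the transcript start. Their centres were a median of 24 bp from the nearest protein-coding start (quartiles 8 and 63 bp), with a signed median of −15 bp, where negative is upstream. Within 20 bp of a start lay 45.1% of the matches, within 50 bp 70.8% and within 100 bp 83.8%. The 20 bases just upstream of a start held 362 matches (24.8%) and the 20 bases from the start on held 293 (20.1%), whereas 65 (4.45%) lay in the next 20 bases downstream. With the 1483 matches found around the replicate 2 summit, the median distance was also 24 bp and 84.0% lay within 100 bp. NF-Y strings of the 2030 promoter regions that held only those were placed differently, at a median of −62 bp and a median distance of 72 bp. Of these NF-Y matches, 13.1% lay within 20 bp of a start and 86.2% were upstream, compared with 69.5% of the ETS matches.

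**Figure D1:**
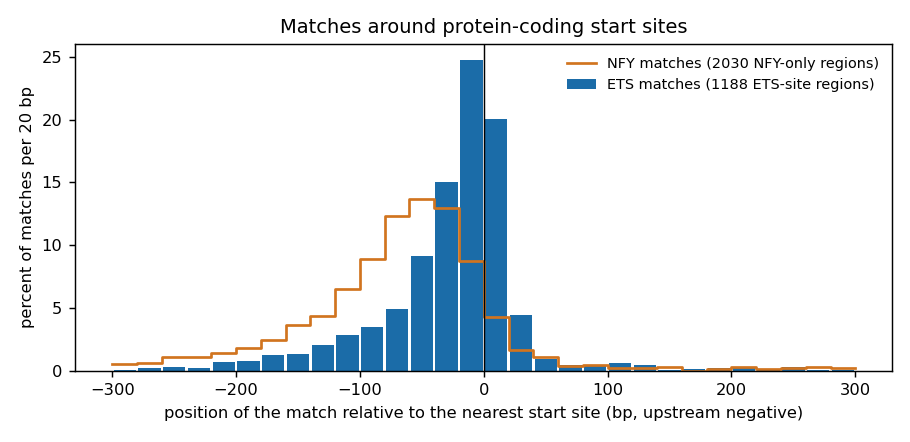
Position of ETS matches (blue bars, 1460 matches in 1188 regions) and of NF-Y matches (orange line, 2728 matches in 2030 regions) relative to the nearest protein-coding start, as percent of matches in bins of 20 bp. The ETS matches peak in the bins on either side of the start, with 24.8% just upstream, and the NF-Y matches peak upstream.

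The site showed no overall orientation. It read CCGGAA on the strand of the gene in 50.9% of matches. In the bin from 40 to 21 bp upstream, 1 of many bins looked at, 135 of 220 matches (61.4%) did so. In the bins on either side of that one, the share was 47.8% farther upstream and 50.6% nearer the start. In the annotation, 680 matches (46.6%) were in an untranslated or noncoding exon, 584 (40%) were outside protein-coding transcripts, 156 (10.7%) were in an intron and 40 (2.74%) were in coding sequence. Surf2 shows the typical placement, with its match centred 1 bp downstream of the start, and Mrps26, which encodes a mitochondrial ribosomal protein, with its match at 4 bp. Cox5b (−49 bp), Tfb1m (−54 bp) and Zfp433 (−48 bp) had it upstream, and Tfam, the mitochondrial DNA packaging and transcription factor, had it 192 bp downstream, in an untranslated or noncoding exon.

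The summits themselves lay nearer to starts at ETS-site regions than at the 7350 other promoter regions. The median distance was 37 bp in replicate 1 and 40 bp in replicate 2, against 78 and 75 bp at the others, a mean difference of −38.0 ± 4.24 bp (SD, n = 2). Summits within 100 bp of a start made up 82.8% and 81.8% of the members, and 59.5% and 60.6% of the others. Far summits were few: 2.19% and 2.27% of the members were over 500 bp from any start, compared with 11.1% and 10.9%. The nearness held in every quartile of GC content of the window, where replicate 1 medians were 38, 34, 41 and 37 bp for members, from the lowest quartile to the highest. The others were at 71, 66 and 67 bp in the upper 3 quartiles and farther in the lowest, where the replicate 2 medians were 35.5 bp for members and 112 bp for the others. Read the other way, the share of promoter regions that were members fell with distance of the replicate 1 summit from the start, from 20.9% at up to 50 bp to 13.9% at 51 to 100 bp, 8.59% at 101 to 200 bp, 6.09% at 201 to 500 bp and 3.08% beyond. Regions and genes are not replicates, so none of these differences was given a test. The error stated is the spread between the summits of the 2 replicates at the same shared regions.

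The rule did not use the replicate 2 summit, but the summits of the replicates lay close together, so nearness to it largely follows from the choice of members and is given as a description. Of the 1188 members, 1097 (92.3%) had a match within 100 bp of the replicate 2 summit as well, and 91 did not. The matches were a median of 35 bp from the replicate 1 summit and 36 bp from the replicate 2 summit, and 92.9% lay within 100 bp of the latter, while 44 (3.01%) were at least 200 bp away. The summits of the replicates were a median of 15 bp apart at members and 16 bp at other promoter regions. When the replicate 2 summit chose the regions, 1204 qualified and 1094 qualified under both, which is 92.1% of the replicate 1 choice and 90.9% of the replicate 2 choice. Over the 2 choices of summit among the same shared regions, the count was 1196 ± 11.3 (SD, n = 2). With the peaks of 1 replicate alone, 1269 regions qualified in replicate 1 and 1354 in replicate 2.

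**Figure D2:**
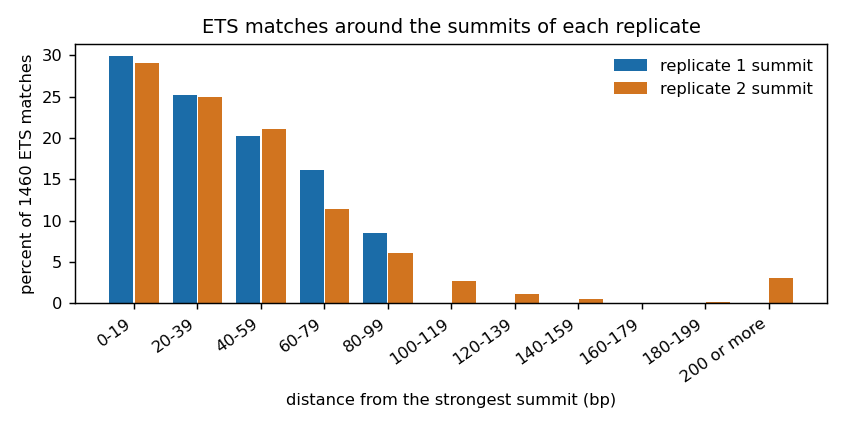
Distance of the 1460 ETS matches from the strongest summit in replicate 1 (blue) and replicate 2 (orange), in percent of matches per 20 bp. The rule limits replicate 1 to 100 bp. In replicate 2, which it did not use, 92.9% were within that limit and 3.01% were at 200 bp or more.

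Away from starts the ETS string was scarce. In windows of the same size it was present in 16.6% and 16.9% of shared promoter regions by the replicate 1 and replicate 2 summits, NF-Y holders included, and in 2.44% and 2.45% of the 8887 shared regions farther than 1000 bp from a protein-coding start. Among promoter regions listed in replicate 1 alone, 63 of 829 (7.60%, 95% Wilson interval 5.98 to 9.61%) held it, and among those listed in replicate 2 alone, 150 of 1468 (10.2%, 8.77 to 11.9%). These intervals cover counting error only.

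Looking from the genome instead of the peak lists, 1863 of 21938 protein-coding genes (8.49%) had an ETS string within 100 bp of their outermost start. A promoter region was listed in both replicates at 38.8% of all genes. The share was 77.5% (1444 genes) with an ETS string at the start and 35.2% (7063 of 20075) without. GC content also moved with these shares, and within its quartiles, from the lowest to the highest, they were 44.9% against 12.4%, 72.7% against 29.9%, 83.5% against 52.9% and 76.7% against 49.8%. The density of ETS strings was 733 per 1000 kb in the 50 bp just upstream of outermost starts and 643 in the 50 bp from the start on, and it was 28.5 from −2000 to −1001 bp. Of the 804 strings in the 50 bp upstream, 71.8% lay in a region shared by both replicates, as did 78.7% of the 705 just downstream, 3.04% of the 625 from −2000 to −1001 bp and 5.26% of the 799 at 1000 to 2000 bp downstream. A string outside the listed regions cannot be read as lying in closed chromatin, since the depth is unknown.

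**Figure D3:**
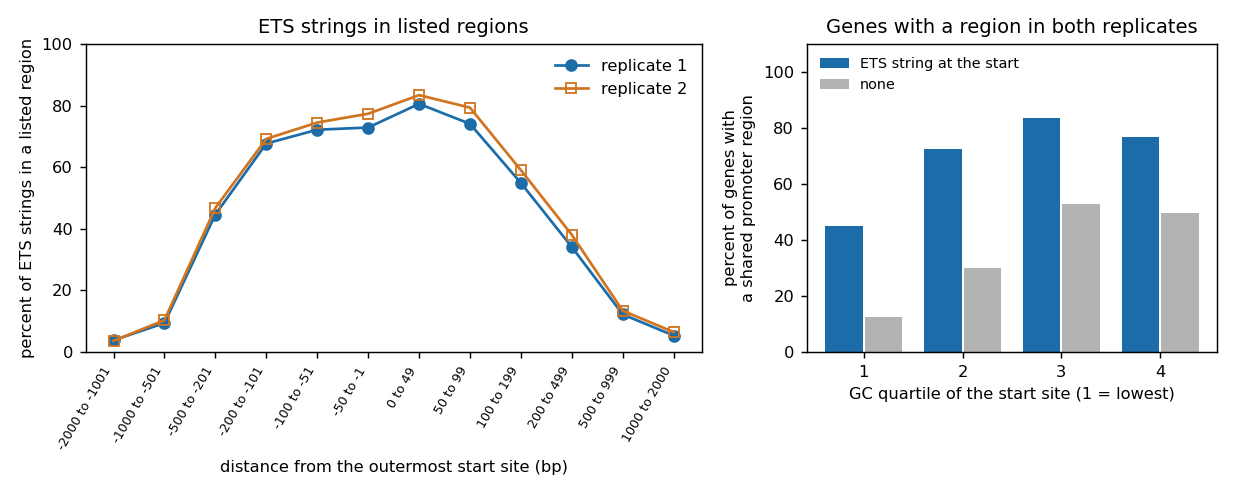
Left, percent of ETS strings around outermost protein-coding starts that lay in a listed region of replicate 1 (blue) or replicate 2 (orange), by distance from the start. Right, percent of genes with a promoter region in both replicates, with (blue) and without (grey) an ETS string within 100 bp of the start, by GC quartile. With a string the bars reach 44.9 to 83.5%, and without one 12.4 to 52.9%.

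In strength, the ETS-site regions stood between NF-Y promoters and promoters with neither string. Strength here is the authors' signal value of the strongest peak, ranked as a percentile among all regions of the same replicate because the values are not scaled between libraries. The median percentile of the members was 69.1 in replicate 1 and 73.4 in replicate 2, with signal medians of 10.3 and 11.97. Promoter regions with NF-Y strings alone were at 80.2 and 82.3, and the 5089 with neither string at 57.6 and 60.9. The difference of the members was therefore −9.99 ± 1.66 percentile points from the former and 12.01 ± 0.818 from the latter (SD, n = 2). The 231 regions with both strings, which the rule leaves out, were at 84.9 and 86.5.

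Against all 7350 other promoter regions the difference was 3.70 points in replicate 1 and 4.70 in replicate 2. It was 7.65 points with replicate 1 alone and 7.93 with replicate 2 alone, where regions of 1 replicate also count, and 7.04 and 7.89 points when regions with NF-Y strings were not left out. The groups differed at the lower end of the list and not at the upper. Regions in the weakest 25% of the list made up 9.68% and 6.31% of the members and 13.7% and 11.7% of the others, whereas the top 10% of the list held 17.4% and 19.02% of the members and 17.7% and 19.3% of the others. With only the stronger 50% of peaks in each replicate, the replicate 1 difference turned to −2.17 points and the replicate 2 difference was 0.34 points. GC content moved with it too. In the lowest GC quartile the members were 8.48 and 8.05 points higher, and in the other 3 quartiles the difference was between 0.190 and 3.03 points. At 51 to 100 bp from a start the difference was −2.40 and −0.995 points, so the strength difference was not of one sign at all distances.

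**Figure D4:**
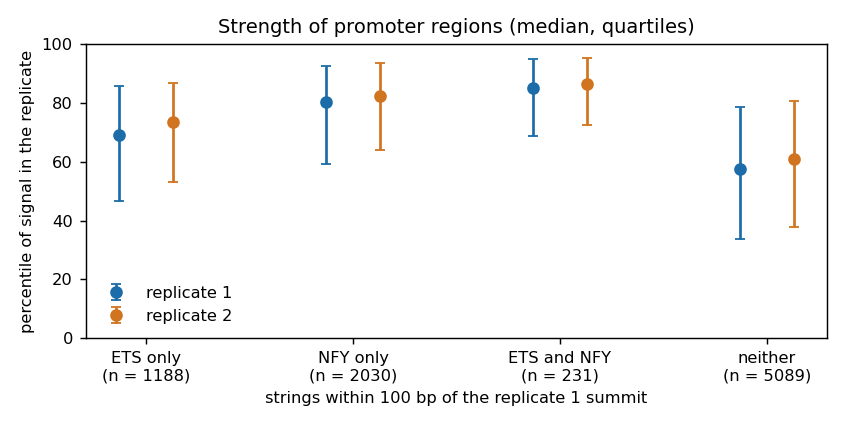
Percentile of signal within each replicate for shared promoter regions with an ETS string, an NF-Y string, both or neither near the replicate 1 summit; points are medians and bars run from the lower to the upper quartile. ETS-site regions (69.1 and 73.4) lie between those with neither string and those with NF-Y strings, and the quartile ranges overlap.

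Individual members spanned nearly the whole list. Signal ran from 3.23 to 20.8 in replicate 1 and from 3.76 to 24.7 in replicate 2. Of the members, 799 (67.3%) were above the 50th percentile in both replicates, as were 60.6% of other promoter regions, and 209 were below it in both. The rank correlation of the replicates' signals was 0.829 over members and 0.876 over the others, a description across regions that share 2 libraries. The irreproducible discovery rate score, which measures on a −log10 scale how alike a region ranks in both replicates, had a median of 2.96 for members and 2.91 for others, and 1152 members (97.0%) passed a rate of 0.05, against 96.0%. Regions were of ordinary width, with medians of 491 and 511.5 bp against 481 and 502 bp.

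The strongest member by mean percentile was at Virma, which encodes a subunit of the RNA m6A methyltransferase complex. Its region (chr4:11485548-11486124) had signals of 20.8 and 22.5, and its match, a CCGGAAGT at −9 bp, was outside protein-coding transcripts. Mfn1, a GTPase for fusion of the mitochondrial outer membrane, had 19.1 and 22.5, Zfp433 had 19.9 and 21.6, and Gm32687 had 19.5 and 22.5. Gm527, also among the strongest 5, had 20.6 and 21.2 with its match at −207 bp. All 5 ranked above the 99th percentile of both replicates. The weakest members were at Ppp2r3d (3.66 and 4.37), a protein phosphatase 2A regulatory subunit gene, Rab11fip1 (3.50 and 5.24), which encodes a partner of the recycling GTPase RAB11, Ncl (4.92 and 3.797), the gene of nucleolin, Dhx9 (4.13 and 5.18), an RNA helicase gene, and Gucd1 (4.61 and 4.88). All 5 were below the 10th percentile in both replicates.

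Distance from the start and sequence around the site went with strength among the members. The 713 members with the replicate 1 summit within 50 bp of a start had median percentiles of 68.9 and 73.2, the 122 at 101 to 200 bp had 74.8 and 79.0, and the 26 beyond 500 bp had 37.4 and 35.1. Members in the highest GC quartile were at 59.4 and 65.9, and those in the third quartile at 73.4 and 77.6. Starts on both strands within 1000 bp occurred at 233 members (19.6%) and at 12.2% of the other promoter regions. These 233 had median percentiles of 67.4 and 68.4, against 69.7 and 74.6 for the remaining 955. The median GC content was 63.2% for members and 62.2% for the others. The median observed to expected ratio of CpG was 0.850 against 0.748, part of which the rule fixes, since every ETS string holds a CpG inside the window measured.

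Strength differed little with the number of sites and did not rise with each further one. With 1 match, 961 members had median percentiles of 68.5 and 72.7, with 2 matches 191 members had 71.4 and 76.3, and with at least 3 matches 36 members had 69.5 and 72.8. Nr1h2, the gene of liver X receptor beta, had 5 matches and signals of 10.3 and 11.2, close to the median of the members. Pigm, an enzyme gene of GPI anchor synthesis, had 4 matches with 14.8 and 17.0, and Gpatch2, Psma6 and Sec24c also had 4. Psma6 encodes a proteasome core subunit and Sec24c a cargo adaptor of COPII vesicles.

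Where sites came in numbers, some arrangements were commoner than others. There were 272 pairs of neighbouring matches within a region, 150 (55.1%) on the same strand, 72 (26.5%) pointing apart and 50 pointing toward each other. The commonest spacing was a palindrome in which opposite sites overlap with starts 4 bp apart, found in 22 pairs. Both sites of such a pair share the letters CCGG, which read the same on either strand, so fewer further letters are needed. Its rank among the spacings therefore partly follows from the string and was not tested. Next came same-strand sites 20 bp apart, with 11 pairs. The stretches of 4 members show these spacings, with both sites in capitals. Gar1 and Snrpe encode proteins of small RNA particles, Cops9 a subunit of the COP9 signalosome, and Ebna1bp2 a ribosome assembly factor.
Gar1 (chr3:129831420-129831449, plus strand): gtacgcgacGTTTCCGGAAGTgtggcggcg
Snrpe (chr1:133610258-133610287, plus strand): cggaaagcgACTTCCGGAAGCaagacccgg
Cops9 (chr1:92641965-92641994, minus strand): gCCGGAAGTagaaggggctggCCGGAAGTg
Ebna1bp2 (chr4:118620795-118620824, plus strand): aCCGGAAGTgcggctatgaacCCGGAAGCg
Signals at the overlapping sites were 12.6 and 13.9 for Gar1 and 14.2 and 17.0 for Snrpe. Other palindromes were in weak regions, such as that of Ripk1, at percentile 43.2 in replicate 1 and 6.76 in replicate 2.

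Strings of other factors were counted in the same window on both strands. The GATA string (GATA with A or T before it and A or G after it) was in 110 members (9.26%) and in 17.6% of other promoter regions, and the difference over both summits was −8.70 ± 0.552 points (SD, n = 2). KLF1 strings (CCNCACCC or CCNCGCCC) were in 39.9% against 45.9%, a difference of −6.16 ± 0.160 points. YY1 strings (ATGGCGG) were in 8.59% against 5.89%, 3.10 ± 0.568 points higher, and CRE strings (TGACGTCA or TGACGTGA, 8 letters each) in 4.88% against 3.95%. SP1 strings (GGGCGGAA, GGGCGGAG, GGGCGGGA or GGGCGGGG), some of which are also KLF1 strings, were in 43.2% and 44.1%, so they were as frequent at members as elsewhere to within 1.38 points in either replicate. TATA strings (TATAAA) were in 1.26% against 2.87% and AP-1 strings (TGACTCA, or the same with G in the centre) in 1.52% against 3.08%. Over all 8538 promoter regions, the shares were 16.4% for GATA, 45.1% for KLF1, 6.27% for YY1, 4.08% for CRE, 44.0% for SP1, 2.65% for TATA and 2.86% for AP-1. These are matches of letters, not binding sites. Members were 7.97% of the promoter regions in the lowest GC quartile, against 13.9% of all promoter regions. They were 3.08% of those with summits over 500 bp from a start. The shares of strings were not compared at like GC content or distance, so a link to the ETS string cannot be told apart from these differences.

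Some strings touched the ETS site. An SP1 string overlapped it in 38 of the 513 members with one and lay within 10 bp or overlapped in 124 (24.2%), and a CRE string overlapped it in 6 of 58. Overlap was rarer for the other strings looked at, with 21 of 474 for KLF1, 2 of 110 for GATA and 1 of 102 for YY1. It was found in 1 of 196 for RUNX (TGCGGT or TGTGGT), 0 of 96 for the E-box (CACGTG) and 0 of 25 for NRF1. No expected overlap was computed. A string that the rule let pass was the plain CCAAT of 5 letters, which is part of the NF-Y string but less strict. It was in 174 members (14.6%) by the replicate 1 summit and 187 (15.7%) by the replicate 2 summit. In the 5089 promoter regions with neither string of the rule the shares were higher, at 18.5% and 19.6%. The Mfn1 stretch printed above holds one, as do the windows of Virma and Gm527, which are also among the strongest members. Members with this CCAAT had median percentiles of 78.8 and 81.5, and those without it 67.1 and 72.3, a difference of 10.5 ± 1.76 points (SD, n = 2). In promoter regions with neither string of the rule the same difference was 12.2 and 10.1 points. This comparison was chosen after the values were seen.

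The genes were read against 25 lists, and among all 8507 genes with a shared promoter region, 16.8% had an ETS-site region (1432 genes; 17.0% by the replicate 2 summit). A list's share is of its genes with a shared promoter region. Where 2 counts are given, the first is by the replicate 1 summit and the second by the replicate 2 summit. The percentage after them is the mean and SD of both shares, and this SD reflects only the choice of summit among the same shared regions. A lone count is by the replicate 1 summit.

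GABP and the genes it is known to control come first. Of 9 genes known as GABP targets with a shared promoter region, 5 (55.6%) had an ETS-site region by either summit, in 4 regions since Surf1 and Surf2 share one. The list came from general knowledge, and whether its genes became known as targets through this same string was not checked. The share is therefore a description only. Tfb1m, Tfam and Cox5b are also counted in the mitochondrial lists below. Cox5b, a subunit of cytochrome c oxidase, had signals of 14.7 and 15.4, and Tfb1m, a mitochondrial ribosomal RNA methyltransferase, had 15.4 and 13.99. Tfam had 10.7 and 13.2, and the region between Surf2 and Surf1, a cytochrome oxidase assembly factor, had 7.42 and 7.93. Cox5b and Tfb1m ranked at percentile 84.4 or higher in both replicates, and the Surf region was below the 50th in each. Gabpa itself, whose region also serves the ATP synthase gene Atp5j on the other strand, had 2 matches and signals of 10.9 and 15.7. Of the 14 ETS family genes with a shared promoter region, Elk4 was the other one with an ETS-site region, and its signals were low at 4.98 and 7.26.

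Mitochondrial gene lists varied. An ETS-site region was at 23 and 22 of 70 genes of mitochondrial ribosomal proteins (32.1 ± 1.01%, SD, n = 2) and at 6 and 8 of 17 genes of mitochondrial DNA maintenance, transcription and translation, where the choice of summit changed the share most (35.3% and 47.1%). Mrps26 had 15.8 and 20.3 and Mrps14 16.3 and 17.6, and Gfm1, a mitochondrial elongation factor gene, had 13.1 and 19.4. Polrmt, the mitochondrial RNA polymerase gene, had 12.1 and 13.8. Respiratory chain and ATP synthase genes had 15 and 14 of 72 (20.1 ± 0.982%), with Sdhb of complex II at 17.0 and 18.4 and Ndufv1 of complex I at 17.4 and 16.9. Protein import genes had 4 of 25 (16.0%), near the share of all genes. Cox6a1 showed the largest disagreement of the respiratory members, at percentile 15.0 in replicate 1 and 83.4 in replicate 2.

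Genes for making and processing RNA and protein were often members. Splicing genes had 18 of 63 (28.6%), led by Prpf4, which shares its region with Cdc26 (16.7 and 17.1), and Snrpc of the U1 particle (16.7 and 14.9). Translation initiation factors had 14 and 15 of 48 (30.2 ± 1.47%), with Eif3h at 13.6 and 16.4, and aminoacyl tRNA synthetases 10 of 35 (28.6%), with Lars at 16.1 and 19.2 and Cars at 14.8 and 17.6. Vesicle transport genes had 20 and 21 of 66 (31.1 ± 1.07%), with Copa of the COPI coat, which shares a region with the gamma-secretase gene Ncstn, at 16.6 and 15.6, and the translocon gene Sec61a1 at 12.1 and 18.8. Proteasome genes had 10 and 11 of 40 (26.3 ± 1.77%), with Psmd11 (15.7 and 15.9) and Psmd12 (13.8 and 18.3), which both encode lid subunits. RNA polymerase, general transcription factor and Mediator genes had 23 and 22 of 91 (24.7 ± 0.777%), with Taf13 of TFIID at 14.6 and 19.4 and Polr3b of RNA polymerase III at 15.3 and 17.0.

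Cytosolic ribosomal protein genes had an ETS-site region at 17 and 18 of 71 (24.6 ± 0.996%), and these regions were of lower strength, with median percentiles of 52.4 and 56.8 against 69.1 and 73.4 for all members. Rpl31 (17.0 and 15.6) and Rpl15, which shares its region with Nkiras1 (16.7 and 17.4), were exceptions. The reverse was seen at Zfp zinc finger genes, where the share was that of all genes (42 and 44 of 252, 17.1 ± 0.561%) but the 42 regions had median percentiles of 83.2 and 82.5. Besides Zfp433, Zfp53 had 20.3 and 20.1.

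Genes of the cell cycle and genome upkeep differed by list. DNA replication genes had 11 of 44 (25%) by either summit, with Rfc3 of the clamp loader at 17.1 and 16.8 and Orc4 of the origin recognition complex, in the region it shares with Mbd5, at 15.8 and 16.9. Counting ETS strings whether or not an NF-Y string was present, the list had 18 of 44 (40.9%), against 20.2% of all genes. By that count the next highest shares among lists with at least 20 such genes were 40% of aminoacyl tRNA synthetase genes and 39.7% of splicing genes. DNA repair genes had 5 and 7 of 44 (13.6 ± 3.21%), with the excision repair genes Ercc5 (13.8 and 17.96) and Ercc3 (13.95 and 16.5). Cyclins, CDKs and their regulators had 5 of 39 (12.8%), namely Ccnh and Cdk7, which form the CDK-activating kinase of TFIIH, and Ccnt1, Cdk13 and Cdk10. Ccnh had 15.1 and 15.7 and Cdk7 14.2 and 16.3, and both ranked above the 90th percentile. Ubiquitin conjugating enzymes had 3 of 24 (12.5%), among them Ube2v2 with 14.4 and 22.5, and autophagy genes 3 of 25 by the replicate 1 summit and 5 by the replicate 2 summit, with Atg16l1 at 16.9 and 14.8.

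Lists of the red cell lineage were low or empty. Of 20 erythroid transcription factor genes with a shared promoter region, 1 had an ETS-site region (5%). So did 1 of 21 heme and iron genes, 0 of 15 red cell membrane genes and 0 of 11 olfactory receptor genes. The share over all genes with a shared promoter region was 16.8%, and counts from lists this small can be read no further. Replication-dependent histone genes had 0 of 55, and 43 of these (78.2%) had an NF-Y string near the summit of a promoter region, against 30.4% of all genes with a shared promoter region. Counting ETS strings whether or not an NF-Y string was present, the histone list also had 0 of 55, against 20.2% of all such genes. GATA strings were at 10 of the 20 erythroid factor genes, 12 of the 15 membrane genes and 7 of the 21 heme genes (50%, 80% and 33.3%), against 17.0% of all genes with a shared promoter region. Cytokine signalling genes had 3 of 23 (13.04%): Csf2ra, a receptor chain, with 13.9 and 14.5, Stat6 with 7.31 and 9.94, and the phosphatase gene Ptpn11 with 4.85 and 6.91.

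The erythroid factor was Gata1, the gene that the labels give as lost in this line, and its member was not at the main promoter of the gene. The region (chrX:7964023-7964474) lay at an internal start with signals of 5.23 and 5.93, at percentiles 13.2 and 16.3, and the match, at −44 bp from that start, was in an intron. Its site stretch is shown because it is the one member among erythroid factors.
Gata1 (chrX:7964195-7964224, minus strand): aggggataaagCCGGAAACcacggggtttc
Which part of Gata1 is altered in the line is not given in the sources used here.

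**Figure D5:**
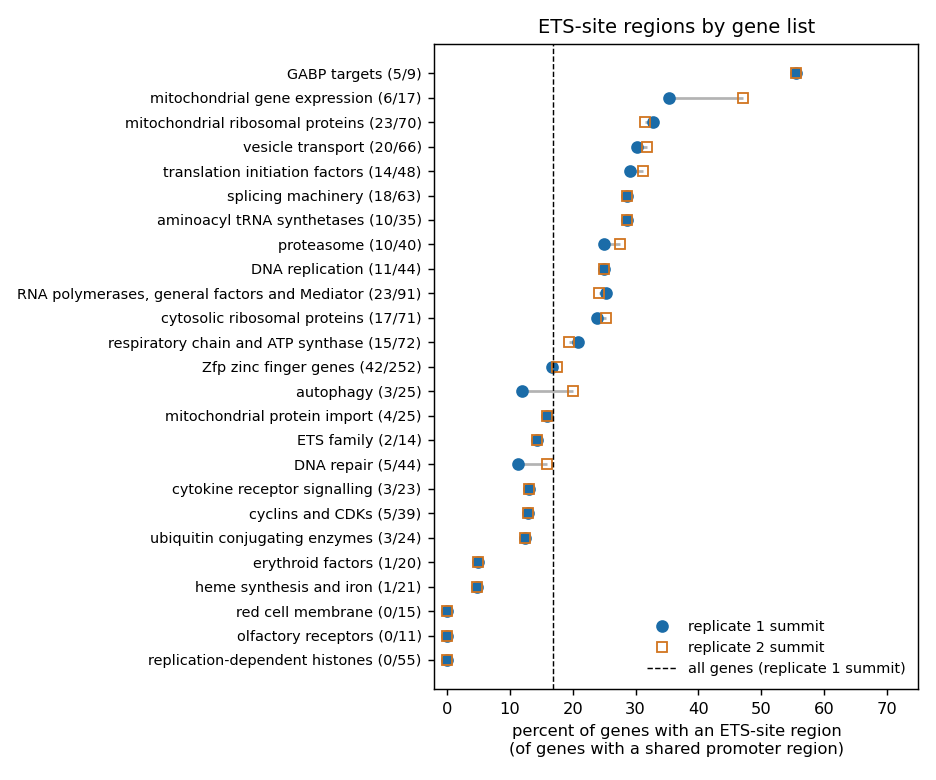
Percent of genes with a shared promoter region that had an ETS-site region, for 25 gene lists, by the replicate 1 (blue) and replicate 2 (orange) summit; numbers in brackets are genes with an ETS-site region and genes with a shared promoter region. The dashed line is the 16.8% of all genes. GABP targets, a list from general knowledge, reach 55.6%, and histone, olfactory and red cell membrane genes are at 0.

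A few members rest on repeated sequence. The 30-base stretch around the site was identical in 11 members in 6 groups, which include Zfp433 and Gm32687 on chromosome 10, Mterf1a and Mterf1b on chromosome 5, and Kifc1 and Kifc5b on chromosome 17. At Zfp433 and Gm32687, both among the strongest members, the shared sequence ran through nearly the whole window of 201 bases. How reads that align to several places were treated is not given in the sources used here, so the separate signals of such copies are uncertain. Counting each stretch once left 1182 members.

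At the limits of the rule, Bard1 (11.3 and 12.3) and Alg1 (10.2 and 13.9) had a match whose farthest base was 100 bp from the summit and were kept, and Ccdc28a (14.7 and 15.8) and Helb (14.5 and 15.9), at 101 bp, were not. Csk, 986 bp from the region edge to a start (5.30 and 5.82), and Icmt, 937 bp (6.15 and 7.60), were the most distant members, and the nearest regions beyond 1000 bp were at Gm8439, 1052 bp, and Ier2, 1091 bp.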

How the data were processed

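ATAC-seq of 2 G1E replicates was analysed from deposited peak lists on mm10, per the labels. The authors' aligner and peak caller, not given in the sources used here, could affect every position and signal. The authors thresholded each list by irreproducible discovery rate (IDR). Signal values are the deposited enrichment values, not scaled between libraries, and were used to describe and rank within a list. The −log10 p values that the authors deposited served only to choose between peaks of a region with equal signal, if any. The deposited IDR score (−log10, at most 5) came from the authors' between-replicate list.

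Overlapping or touching peaks of both replicates were joined, and each region kept its strongest peak per replicate. Starts were those of any protein-coding transcript of GENCODE M21, which uses the same build. Strings were matched exactly on both strands, and sequences were read from GRCm38 (pysam 0.24.0, pandas 2.3.3). Scripts were tested on simulated data. The design has 1 group, so no test was made, and ± is the SD of the 2 replicates over the same shared regions. For counts of members, genes and strings it reflects only which replicate's summit was used. Members, lists and the rule for named genes (the 5 strongest, the 5 weakest, the 5 with the most matches, the 2 strongest per list, all GABP, ETS and erythroid members, and those at the limits) were chosen with earlier results of these data known; further list members and the paired sites shown were named after their values were seen. GABP targets were listed from general knowledge. In all, 14 alternatives were planned and 2 were added after seeing the data. A lenient list of each replicate, also deposited, entered only 1 of the alternatives, and the other deposited lists were not used. Not every gene under the rule is named, and 1 member is not reported here.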

Additional observations from a re-analysis of the deposited data

How the results depend on the processing

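Of 140 values recomputed under 16 alternatives, 91 moved, 1 changed sign and 48 did not move, where a value counts as moved past 1 SD between replicates and the number of members only past 1.5 times the reported 1188. That number ran from 644 to 1853, so it often left the SD of 11.3 between choices by the 2 summits. The 2 alternatives added after seeing the data were the exclusion of the 5-letter CCAAT and counting identical stretches once. In the sentences that follow, the share is that of promoter regions with an ETS site (13.9% as reported), the strength differences are members minus other promoter regions in percentile points (3.70 in replicate 1, 4.70 in replicate 2), the summit distance is the median to a start (37 bp), the near matches are those within 100 bp of a start (83.8%), the replicate 2 share is that of members with a match by the replicate 2 summit (92.3%), the width difference is in bp (11.5, on the joined regions) and the gene share is that of genes with a shared promoter region (16.8%). For the share, near matches, replicate 2 share and gene share, the SD was taken between the reported value and that by the replicate 2 summit. That alternative therefore always counts as moved for these. The width SD came from widths within each replicate, not from the joined regions. The count of 91 is thus partly fixed in advance. With only the stronger 50% of peaks, the replicate 1 strength difference reversed to −2.17 and that of replicate 2 was 0.339. The share was then 15.1%, near matches 84.4%, the width difference 10.5 and the gene share 16.4%. The cause was not tested.

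The 6-letter core CCGGAA gave 1853 members, a share of 21.7%, strength differences of 2.24 and 2.92, a summit distance of 42 bp, near matches of 79.4%, a replicate 2 share of 90.9%, a width difference of 23 and a gene share of 25.9%. The string ending in GT alone gave 644 members, 7.54%, 5.27 and 6.10 points, 33 bp, 87.3% near, width 24 and gene share 9.24%. Without the NF-Y exclusion the share was 16.6%, strength 7.04 and 7.89, distance 40 bp, near matches 82.9%, width 13 and gene share 20.2%. Excluding the 5-letter CCAAT gave 11.9%, 1.39 and 3.31 points, 84.5% near, width 10.5 and gene share 14.4%. A window of 50 bp gave 9.77%, 1.96 and 3.63 points, 30 bp, 85.1% near, replicate 2 share 95.2%, width 4 and gene share 11.9%. A window of 200 bp gave 16.0%, 41.5 bp, 81.5% near, replicate 2 share 80.7%, width 13.5 and gene share 19.2%. The replicate 2 summit gave 14.1%, 2.33 points in replicate 1, 84.0% near, 90.8% for the converse share, width 15.5 and gene share 17.0%.

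Starts within 500 bp gave 14.6%, 2.41 and 3.36 points, 84.6% near, width 7 and gene share 16.9%, and starts within 2000 bp gave 13.2%, 5.57 and 6.59 points, 82.5% near and width 18. Outermost starts alone gave 15.2%, 2.00 and 2.70 points, 51 bp, 72.6% near, width 4 and gene share 17.1%. The lenient lists gave 13.05%, 5.54 points in replicate 1, 83.4% near and width 33. An overlap of 50% of each region gave 83.6% near, width 12 and gene share 16.6%, and identical stretches counted once gave width 9.5. With 1 replicate left out, the share ranged from 13.2 to 13.4%, near matches from 83.3 to 83.5%, the width difference from 12 to 25 and the gene share from 17.1 to 17.4%, and the strength difference was 7.93 in replicate 2 alone and 7.65 in replicate 1 alone. The replicate 2 share needs both replicates.

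No paired analysis was possible because the series has 1 group. The depth is unknown, so absence from a peak list does not show closed chromatin, and the strength of a region is known only as a rank. Exact strings miss sites with other letters, and a match is not a bound site. No value here shows which ETS factor, if any, was bound.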

Other observations

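The share of shared promoter regions that carried an ETS site and no NF-Y site varied between chromosomes around the overall 13.9%. It was highest on chromosome 2, with 116 of 670 regions (17.3%), and lowest on chromosome X, with 21 of 260 (8.08%). Chromosomes 14 and 19 also had low shares, 10.3% and 10.2%. Regions of a chromosome are not replicates and no test was made.

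Of the members, 11 (0.926%) also held the string of ZNF143, a zinc finger factor of promoters, close to the 0.830% of other promoter regions. These 11 had median percentiles of 91.7 and 86.4 in replicates 1 and 2. NRF1 strings, which mark another regulator of nuclear genes for mitochondrial proteins, were in 25 members (2.10%) and in 1.27% of other promoter regions, and the members with one had median percentiles of 64.7 and 65.8, below those of all members. CTCF strings were in 6 members (0.505%) and in 0.993% of other promoter regions. These groups are small, and their values are given as a description.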
